A study of Mus musculus with 8 samples.

Results

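Anxa1, Anxa3, Clu, Il33 and Msln are genes that are known to be switched on in the intestinal epithelium when it returns to a fetal-like, regenerative state. They were taken by their symbols, as 5 of the 32285 gene features of the count tables. The symbols were matched without use of a measured value, but the genes were picked with earlier results of these data known. Each symbol matched a single feature, and the 5 genes were followed in all 8 single-cell RNA sequencing libraries of a series on the mouse colon.

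In the resting colon, Wnt signals keep stem cells active in the lower crypt, and their progeny mature into colonocytes, which absorb, and into mucus and hormone cells as they move up. After injury, epithelial cells can lose the genes of the resting stem cell and transiently express genes of the fetal gut, a switch that is known to depend on YAP and TEAD, transcriptional effectors of the Hippo pathway. Annexin A1 and annexin A3, encoded by Anxa1 and Anxa3, bind membrane phospholipids in the presence of calcium, and annexin A1 is also secreted and acts on formyl peptide receptors during wound repair. Clusterin, encoded by Clu, is a secreted chaperone whose gene marks the rare "revival" stem cells of the injured intestine. Interleukin-33, encoded by Il33, is a nuclear cytokine released from damaged cells that signals through the receptor pair Il1rl1 and Il1rap, and mesothelin, encoded by Msln, is a membrane-anchored glycoprotein of mesothelial cells that binds mucin 16.

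The libraries were made with 10x Single Cell 3' chemistry and fell into 4 groups of 2. All came from C57BL/6 mice, with no named transgene and no named treatment beyond the culture media. Tissue epithelium came from colon crypts. Organoid epithelium came from crypt cells grown in a gel with EGF, Wnt, R-spondin, noggin and the chemical Wnt activator CHIR. Assembloid epithelium came from organoids combined with cultured primary colon stromal cells. These were kept in the same base medium without added Wnt, R-spondin, noggin or CHIR. Assembloid stroma was the EpCAM-negative fraction of such assembloids. The libraries of a group are described as biological replicates, with the stroma derived from 2 mice, and p-values measure the spread between these libraries. The mice of the study were young adult males and assembloids were collected within days of mixing, although the labels give no age or day for each sequenced sample.

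A barcode was used when it had 500 or more genes detected and no more than 10% of its counts in mitochondrial genes, and it was gated by marker genes, none of which is a member. The files held 5984 to 32932 barcodes per library, of which 25.4% to 96.1% passed, with the lowest shares in the 2 tissue libraries (38.7% and 25.4%). The labelled epithelium was epithelial by its markers in 77.6% to 99.8% of the passing cells, and the stroma was fibroblast-like by its markers in 85.7% and 95.4%. Between 6 and 528 cells per library lay close to the lineage cut, except in assembloid epithelial library 1, where 4409 did. The gated cells numbered 4261 to 22820 per library with a median of 3500.5 to 35238 unique molecular identifiers (UMIs, each standing for 1 captured RNA molecule) per cell. Pairs of libraries shared 13 to 141 cell barcodes, at most 0.98% of the smaller library. Stroma library 1 stood apart from stroma library 2 in holding 444 cells gated as squamous or basal epithelial and 314 with both epithelial and squamous markers, and these cells were not among the fibroblast-gated ones. In the epithelial-gated cells the 10 fibroblast marker genes summed to 188 and 40.7 CPM (the UMIs of a gene or list scaled to the same total of UMIs for every sum of cells) in assembloid libraries 1 and 2, with none of the 10 at 0, against 0.165 to 0.627 CPM in the organoid and tissue libraries, where 5 to 7 of the 10 were at 0.

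The 5 genes lie on 4 chromosomes of the GRCm38 build used by the submitters. Anxa1 (ENSMUSG00000024659) is on the minus strand at chr19:20373428-20390944, Anxa3 (ENSMUSG00000029484) on the plus strand at chr5:96793339-96845966, Clu (ENSMUSG00000022037) on the plus strand at chr14:65968483-65981547, Il33 (ENSMUSG00000024810) on the plus strand at chr19:29925114-29960718 and Msln (ENSMUSG00000063011) on the minus strand at chr17:25748613-25754378. Il33 has 2 start sites in the RefSeq promoter table, and the 250 bases before each are shown because TEAD factors are the known effectors of the fetal-like switch. Anxa1 also has an entry in that table, but its window is not shown and its motif matches are not reported here. The windows shown are therefore not all those of the members. Capitals mark GGAATG or its reverse complement, the core letters of the TEAD motif, searched on both strands in the sequences, which are RefSeq GRCm38.p6 and plus strand.
Il33 first start, chr19:29924863-29925112: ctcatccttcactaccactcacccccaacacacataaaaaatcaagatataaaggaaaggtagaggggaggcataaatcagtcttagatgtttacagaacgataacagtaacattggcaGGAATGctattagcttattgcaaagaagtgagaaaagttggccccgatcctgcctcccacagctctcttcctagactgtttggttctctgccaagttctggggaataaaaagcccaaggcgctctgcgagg
Il33 second start, chr19:29945540-29945789: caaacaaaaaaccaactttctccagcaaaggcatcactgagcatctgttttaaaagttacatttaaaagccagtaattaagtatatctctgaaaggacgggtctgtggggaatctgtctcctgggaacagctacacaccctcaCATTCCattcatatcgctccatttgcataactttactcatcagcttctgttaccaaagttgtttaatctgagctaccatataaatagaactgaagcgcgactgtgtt
The match began 131 bases before the first start and 107 bases before the second, which lies inside the gene. Of 32851 RefSeq promoter windows of 250 bases, 12.6% held such a match. TGANTCA, the AP-1 motif, was searched on both strands in the same way and had no match in either Il33 window, against 6.75% of all windows that held it. The 3' counts do not tell transcripts from the 2 starts apart.

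To ask how the members differed between tissue, organoids, assembloids and stroma, the UMIs of the gated cells were summed per library. Anxa1 was counted at 119 and 162 CPM in the 2 tissue libraries, 219 and 218 CPM in the organoid libraries, 323 and 479 CPM in the assembloid epithelium and 100 and 111 CPM in the stroma. The groups did not overlap, and their order was assembloid, organoid, tissue and then stroma. Tissue and stroma were not set against each other in a test. The other annexin of the set, Anxa3, was counted at 170 and 193 CPM in tissue, 336 and 311 CPM in organoids, 226 and 363 CPM in assembloid epithelium and 41.5 and 39.5 CPM in stroma. Here the 2 culture groups overlapped, with both organoid libraries inside the range of the assembloid libraries.

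Clu was counted at 4.56 and 6.76 CPM in tissue, 25.7 and 33.4 CPM in organoids, 6.38 and 6.66 CPM in assembloid epithelium and 17.8 and 14.9 CPM in stroma. The organoid libraries were the highest and the assembloid epithelium lay inside the range of the tissue libraries. Il33 was counted at 2.99 and 3.54 CPM in tissue, 17.1 and 22.8 CPM in organoids, 28 and 11.9 CPM in assembloid epithelium and 181 and 150 CPM in stroma. The stroma was highest and tissue lowest, and the assembloid epithelium spanned the organoid values. Msln was counted at 0.278 and 1.17 CPM in tissue, 31.6 and 46.5 CPM in organoids, 8.74 and 8.21 CPM in assembloid epithelium and 0.0911 and 0.00753 CPM in stroma. Its 4 groups did not overlap, and the stroma values rest on 12 UMIs and 1 UMI.

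**Figure D1:**
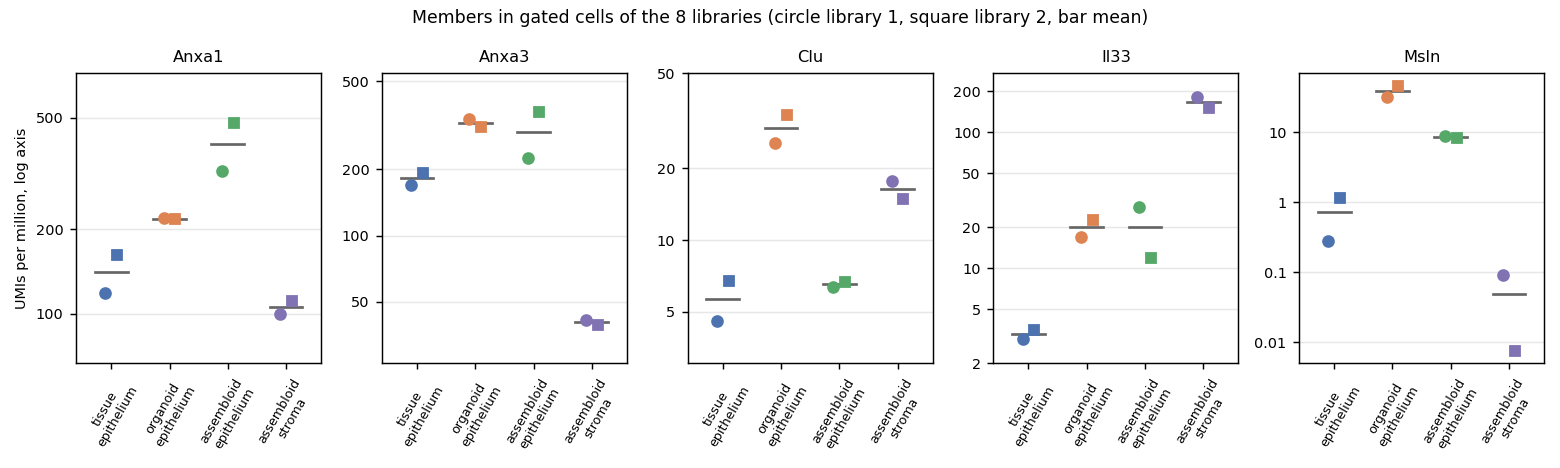
Level of each member in CPM (log axis) in the gated cells of each library, with epithelial-gated cells for tissue, organoid and assembloid epithelium and fibroblast-gated cells for stroma. Circles are library 1, squares library 2 and bars the mean of the 2 libraries of a group; Anxa1 was highest in assembloid epithelium, Clu and Msln in organoids and Il33 in stroma.

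In assembloid epithelium all 5 members were called higher than in tissue by edgeR's quasi-likelihood test with Benjamini-Hochberg adjustment over 18885 genes. Of all genes tested, 48.6% were called in either direction, 25.6% higher and 23% lower, and the CPM values of 82.5% did not overlap between the groups. On the log2 scale Anxa1 was higher by 1.92 ± 0.28 (SE, n = 2 libraries per group, adjusted p = 0.00100) and Anxa3 by 1.11 ± 0.28 (adjusted p = 0.0118). Il33 was higher by 3.08 ± 0.43 (adjusted p = 0.000747) and Msln by 4.03 ± 0.49 (adjusted p = 0.000372). Clu was higher by 0.64 ± 0.23 (adjusted p = 0.0489), the smallest of the 5 changes, and its CPM values overlapped. The Clu call did not hold when any of 5 of the 6 epithelial libraries was left out (0.34 to 0.94 over the 6), and the Anxa3 call was lost without either tissue library (0.98 and 1.19) or without assembloid library 2 (0.82). Il33 was higher by 2.21 without assembloid library 1, and Msln by 3.25 without tissue library 1 and 5.35 without tissue library 2, all still called.

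These fold changes are relative to TMM scaling, which placed the median of all tested genes at 0.017 for this comparison, and they exceed the plain ratios of mean CPM. The fitted folds were 3.8 for Anxa1, 2.15 for Anxa3, 1.55 for Clu, 8.45 for Il33 and 16.4 for Msln, and the corresponding ratios of mean CPM were 2.85, 1.62, 1.15, 6.10 and 11.7. The direction of each was the same on both scales. In bulk sums of this kind, a change in the number of cells that express a gene and a change in the RNA per cell cannot be told apart. The shares of cells given further on also move with the level and the depth, so they do not separate the 2 either.

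Fibroblast markers were measurable in the assembloid epithelium, and fibroblasts are rich in Il33. Fibroblast-gated cells of the assembloid epithelial libraries held Il33 at 239 and 214 CPM, and scaling that profile to the fibroblast-marker level of the epithelial-gated cells gave 2.62 of the 28 CPM in library 1 and 0.494 of the 11.9 CPM in library 2. After removal of every epithelial-gated cell with a UMI of any fibroblast marker, 13068 and 4121 cells remained and Il33 was at 24.7 and 10.9 CPM. Macrophage-gated cells of the same libraries held Il33 at 10.2 and 10.1 CPM, near the 11.9 CPM of the epithelial-gated cells of library 2, and the part of RNA from other cells in that value was not tested.

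In organoids, too, all 5 members were called higher than in tissue, where 47.1% of genes were called, 24.2% higher and 22.9% lower, and 75% did not overlap. The ranking of the changes differed from that in assembloids. Msln rose by 5.99 ± 0.51 on the log2 scale (adjusted p = 5.62e-05), a fitted fold of 63.5. Its log2 value was 5.24 without tissue library 1 and 7.34 without tissue library 2. Clu rose by 2.58 ± 0.24 (adjusted p = 8.48e-05), a fold of 5.99. Il33 rose by 2.81 ± 0.42 (adjusted p = 0.000957). The groups differ in their mix of cell classes. Within the cycling and the stem-like cells, given further on, the Il33 values of the groups overlapped, and in cells of no class they did not. The annexins changed least, with Anxa3 higher by 1.06 ± 0.28 (adjusted p = 0.0140) and Anxa1 by 0.85 ± 0.28 (adjusted p = 0.0328). Both annexin calls were lost without either tissue library or without organoid library 1, when the differences were 0.81 to 1.18 for Anxa3 and 0.64 to 1.12 for Anxa1. The organoid and the assembloid comparison share the tissue libraries and are therefore not independent of each other.

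The difference between the 2 cultures was tested directly, with 51.6% of genes called, 24.2% higher and 27.3% lower in organoids, and 73.4% not overlapping. Clu was higher in organoids by 1.95 ± 0.23 (adjusted p = 0.000387) and Msln by 1.96 ± 0.40 (adjusted p = 0.00413), whereas Anxa1 was lower in organoids by 1.07 ± 0.28 on the log2 scale (adjusted p = 0.0122). The Anxa1 difference was -0.84 and no longer called without assembloid library 2. Anxa3 differed by -0.04 with a 95% interval from -0.68 to 0.59 (adjusted p = 0.906), and Il33 by -0.27 with an interval from -1.15 to 0.61 (adjusted p = 0.579), so a difference of up to about the size of the Anxa1 change remains within the Il33 interval. The Il33 value rests on which assembloid library is used, being -0.79 and called without library 2 and 0.59 and not called without library 1.

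Within assembloids, the fibroblast-gated stroma was compared with the epithelium, for which 72.1% of 19280 genes were called, 33.9% higher and 38.2% lower in stroma, and 88.2% did not overlap. Il33 was higher in stroma by 2.83 ± 0.50 (adjusted p = 0.00584) and Clu by 1.12 ± 0.17 (adjusted p = 0.00356). Anxa1 was lower in stroma (-2.11 ± 0.21, adjusted p = 0.00121), as was Anxa3 (-3.04 ± 0.24, adjusted p = 0.000656). Msln was also lower (-7.60 ± 0.81, adjusted p = 0.00136), against 12 UMIs in stroma library 1 and 1 UMI in stroma library 2. It passed the count filter only through the epithelium, so the size and p-value of its change rest on few stroma counts. Msln was at -10.12 without stroma library 1 and -6.72 without stroma library 2, and Il33 was 3.66 without assembloid epithelial library 1. Stroma and epithelium were counted with different Cell Ranger versions, which cannot be told apart from the difference between the groups. The contrast was therefore repeated inside the assembloid epithelial libraries, between their 514 and 415 fibroblast-gated cells and their epithelial-gated cells. In this repeat 8619 of 17626 genes were called. It gave -1.95 for Anxa1, -1.92 for Anxa3, 3.43 for Il33 and -3.39 for Msln, each called, and 1.04 for Clu (adjusted p = 0.101), which was not. The Anxa3 and Msln changes were smaller in size than the -3.04 and -7.60 between the libraries. The fibroblast-gated cells of the repeat held Msln at 1.36 and 0.594 CPM, so its value there too rests on few fibroblast counts.

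**Figure D2:**
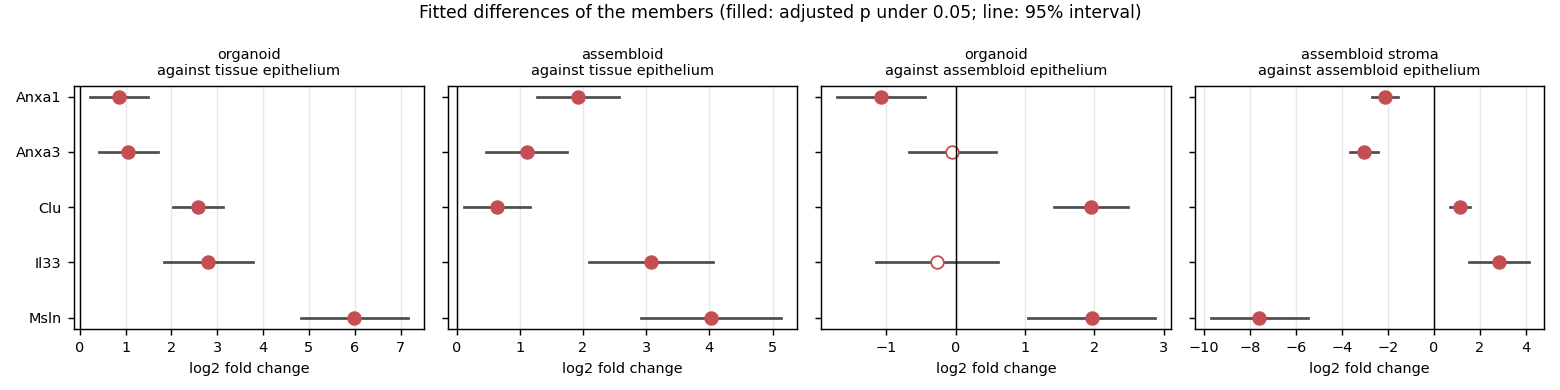
Fitted log2 fold change of each member in 4 comparisons, with lines for the 95% interval and filled points for an adjusted p under 0.05 (edgeR, 2 libraries per group). All 5 points lie above 0 for assembloid and for organoid epithelium against tissue, while Anxa1 lies below 0 and Clu and Msln above 0 for organoid against assembloid epithelium.

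The gene families around the members were read from lists drawn up with earlier results of these data known, by their counts alone. Beside these counts stand the shares of all genes called, which were 48.6% (25.6% higher) in assembloid epithelium against tissue, 47.1% (24.2% higher) in organoids against tissue and 51.6% between the cultures. Of 16 other fetal-like or regenerative genes, 15 were higher in assembloid epithelium than in tissue and S100a6 was not called, with a median log2 fold change of 3.13 beside 0.017 for all genes. Among them were Ly6d (9.28), Sprr1a (7.40) and Ereg (5.19), which encodes the growth factor epiregulin. In organoids 11 of the 16 were higher and none lower, with a median of 2.30 beside 0.056, and among them were Ly6d (4.39), Tnfrsf12a (3.39) and Ly6a (3.31), the gene of the Sca-1 antigen. Between the cultures, 2 of the 16 were higher and 9 lower in organoids, among them Sprr1a (-5.60), Ly6d (-4.90), Areg (-3.23) and Ereg (-2.93), with a median of -1.38.

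Among 10 other annexins, 7 were higher and 1 lower in assembloid epithelium than in tissue, and 4 were higher and 1 lower in organoids. The 8 of 10 called in assembloids stand beside 48.6% of all genes, and the 5 of 10 called in organoids are a share near the 47.1% of all genes. Anxa8, Anxa2, Anxa5 and Anxa4 were higher by 2.61, 2.21, 1.89 and 1.73 in assembloids, and Anxa8, Anxa5 and Anxa2 by 1.42, 1.15 and 0.91 in organoids. The annexin that was lower in both was Anxa13 (-4.51 in assembloids and -5.21 in organoids), an intestinal annexin. It is named here although the rule for naming required a higher mean level. Of the 10, none was higher and 5 were lower in organoids than in assembloids, where 51.6% of all genes were called, including Anxa4 (-1.37), Anxa2 (-1.29), Anxa8 (-1.19) and Anxa5 (-0.74).

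Of 9 genes for receptors and partners of the member proteins, 6 had enough counts for a test in epithelium. Of these 4 were higher in assembloid epithelium than in tissue, including Vldlr (1.88) and Lrp8 (0.72), both lipoprotein receptors that bind clusterin, and 1 was higher in organoids, Lrp8 (2.74). With 6 genes, these counts are not far above the shares of all genes called, and in organoids below. Of 7 tested in stroma, 3 were higher than in assembloid epithelium, 2 lower and 2 not called, beside 72.1% of all genes called. Il1rl1 and Il1rap, the receptor pair for interleukin-33, were higher in stroma by 3.71 and 1.40. Of 13 tested YAP and TEAD genes and targets, 10 were higher and none lower in assembloid epithelium than in tissue, and 8 were higher and 1 lower in organoids, beside 25.6% and 24.2% of all genes higher. Ccn2, a secreted matrix protein and textbook YAP target, was higher by 7.36 in assembloids and by 7.29 in organoids, Ajuba by 3.18 and 5.06, Wwtr1, the gene of the YAP partner TAZ, by 2.47 and 2.94, and Tead4 by 1.75 and 2.29.

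Epithelial-gated cells with at least 2000 UMIs were then assigned to classes by marker levels. The class gates cut through a continuous range, and 369 to 1364 cells per library lay close to the stem cut beside 163 to 967 cells in the stem class. The cycling class held 195 and 118 cells in tissue, with 83 and 150 close to its cut. In assembloid epithelium it held 4856 and 968, with 3087 and 326 close. The colonocyte class held 477 and 610 cells in tissue, with 119 and 298 close to its cut. In assembloid epithelium it held 2124 and 1028, with 1923 and 399 close. A cell that passed the stem gate and another gate was not kept in the stem class. Stem-gated cells therefore passed no cycling, colonocyte, goblet, tuft or enteroendocrine gate. In tissue, Anxa3 had its highest level in colonocyte-gated cells at 288 and 274 CPM, against 87.4 and 118 CPM in cycling, 80.8 and 79.0 CPM in stem-gated and 140 and 170 CPM in goblet-gated cells. Il33 ran the other way. It was at 12.4 and 17.3 CPM in cycling tissue cells (51 and 32 UMIs), 7.34 and 14.8 CPM in stem-gated cells and 0.106 and 0.218 CPM in colonocyte-gated cells (1 and 2 UMIs). The ratio of cycling to colonocyte-gated cells was 116 in library 1 (95% interval 19.9 to 4680) and 79.1 in library 2 (20.2 to 681), intervals that cover counting error only. They treat UMIs as independent draws, while single tissue cells held up to 13 and 9 Il33 UMIs. With cells reduced to 2000 UMIs, Il33 was seen in 1.54% to 1.69% of cycling tissue cells. The intervals are therefore too narrow for a spread between cells.

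In assembloid epithelium the colonocyte-gated and cycling cells lay closer together for these 2 genes. Anxa3 was at 241 and 314 CPM in colonocyte-gated and 196 and 315 CPM in cycling cells, and Il33 was at 11.6 and 7.24 CPM in colonocyte-gated and 39.4 and 21.2 CPM in cycling cells. Il33 in stem-gated assembloid cells was at 20.9 and 5.15 CPM, a range around the 7.34 and 14.8 CPM of stem-gated tissue cells. In goblet-gated cells it was at 29.6 and 8.11 CPM, against 1.22 and 2.34 CPM in tissue. Stem-gated assembloid cells held Anxa1 at 355 and 643 CPM and Anxa3 at 322 and 459 CPM, and the stem-gated cells of both organoid libraries held less of each, at 139 and 179 CPM for Anxa1 and 169 and 247 CPM for Anxa3. Goblet-gated assembloid cells held Msln at 3.47 and 1.13 CPM, the lowest of the classes with 50 cells or more in both libraries.

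The organoid libraries held 11 and 5 colonocyte-gated and 33 goblet-gated cells each, too few for levels of their own. Of their 4759 and 4593 cells deep enough to be classed, most were cycling (3578 and 3003), and 654 and 576 cells that passed no class gate held the highest level of all 5 members in each library. In these cells Anxa1 was at 345 and 428 CPM, Anxa3 at 402 and 476 CPM, Clu at 38.5 and 62.2 CPM, Il33 at 22.8 and 39.0 CPM and Msln at 44.8 and 84.7 CPM. The stem-gated organoid cells, none of which passed the cycling gate, were the lowest of the 3 classes in every member. They held Clu at 14.6 and 24.8 CPM and Msln at 19.3 and 38.9 CPM. Il33 was at 17.3 and 22.2 CPM in cycling and 8.55 and 17.0 CPM in stem-gated organoid cells. Both overlapped the same tissue classes, at 12.4 and 17.3 CPM and 7.34 and 14.8 CPM. Tissue cells that passed no class gate held Il33 at 3.09 and 4.38 CPM, below the organoid values. Tissue held 195 and 118 cycling cells against 3578 and 3003 in organoids. The part of this mix in the Il33 rise was not tested.

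**Figure D3:**
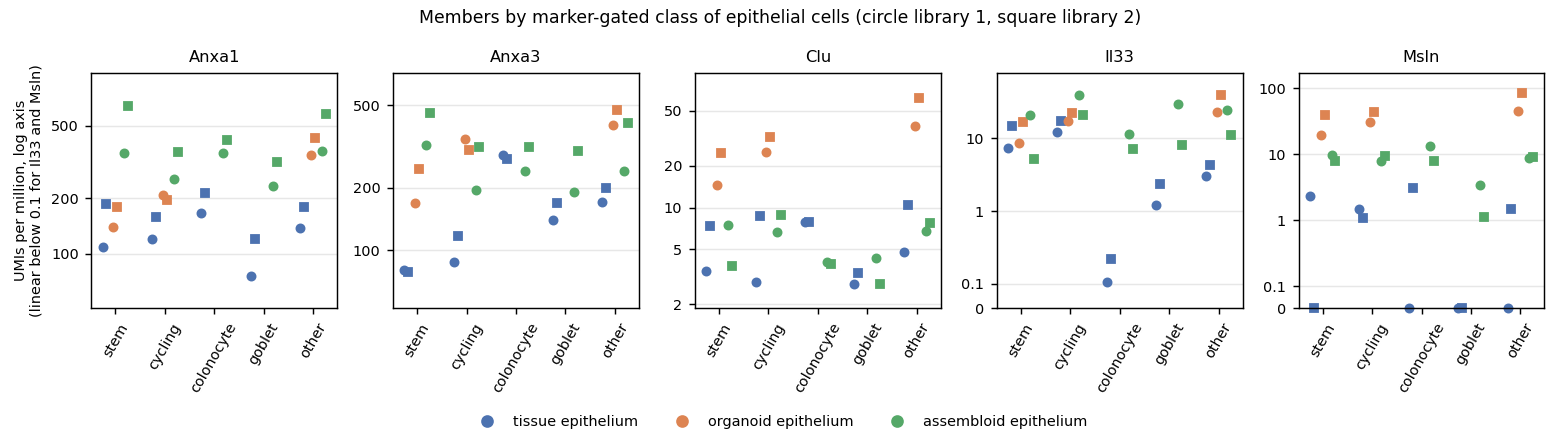
Level of each member in CPM by epithelial class (stem, cycling, colonocyte and goblet gates, and cells that passed no class gate) for tissue, organoid and assembloid epithelium, each point a library, with classes under 50 cells left out. The axis is logarithmic, and for Il33 and Msln it is linear below 0.1 so that a level of 0 can be drawn; Il33 falls from 12.4 and 17.3 CPM in cycling to 0.106 and 0.218 CPM in colonocyte-gated tissue cells.

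Colonocyte-gated and cycling cells were compared in edgeR over 14915 genes, in tissue and in assembloid epithelium. In tissue, where 50.5% of genes were called, 26.4% higher and 24.1% lower in colonocyte-gated cells, Anxa3 was higher in colonocyte-gated cells by 2.05 ± 0.16 (adjusted p = 1.32e-05), Anxa1 by 1.02 ± 0.13 (adjusted p = 0.000215) and Clu by 1.21 ± 0.39 (adjusted p = 0.0277). Clu was at 7.88 and 7.86 CPM in colonocyte-gated and 2.91 and 8.63 CPM in cycling cells, overlapping, and its difference was 0.46 and not called without tissue library 1 and 2.00 without library 2. Il33 was lower in colonocyte-gated cells (-5.87 ± 0.44, adjusted p = 1.22e-05), and the test of Msln had an interval from -2.18 to 2.49 (adjusted p = 0.933), with a value of 2.08 without tissue library 1 and -7.04 without library 2. Msln was at 0 and 3.06 CPM in colonocyte-gated and 1.46 and 1.08 CPM in cycling tissue cells. In tissue library 2 a single cell held 28 of the 43 Msln UMIs, so these Msln values rest on few cells. The class fits, too, are relative to TMM scaling. Fitted folds in tissue exceeded the ratios of mean CPM, at 4.14 against 2.74 for Anxa3 and 2.32 against 1.36 for Clu. In assembloids, where 47.7% of genes were called, 22.1% higher and 25.6% lower, Anxa1 was higher in colonocyte-gated cells by 0.69 ± 0.12 (adjusted p = 0.00167), Anxa3 by 0.50 ± 0.14 (adjusted p = 0.0174) and Il33 was lower (-1.32 ± 0.17, adjusted p = 0.000282). Clu (-0.60 ± 0.29, adjusted p = 0.125) and Msln (0.64 ± 0.41, adjusted p = 0.230) did not pass. The Msln value ran from 0.27 to 1.01 with a library left out, and Msln passed in 2 of the alternative settings. For Anxa3 in assembloids the fitted fold was 1.41 and the ratio of mean CPM 1.09. In assembloid library 2 Anxa3 was at 314 CPM in colonocyte-gated and 315 CPM in cycling cells, which is no rise in CPM. Anxa1 was higher in CPM in the colonocyte-gated cells of each assembloid library. Across these libraries the CPM values of both annexins overlapped between the classes. The fall in Il33 was larger in CPM than fitted.

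The difference between these class effects, assembloid minus tissue, was itself tested, with 15% of genes called, 6.55% with a higher and 8.44% with a lower value in assembloids. Anxa3 (-1.55 ± 0.21, adjusted p = 0.00287), Clu (-1.81 ± 0.48, adjusted p = 0.0390) and Il33 (4.55 ± 0.52, adjusted p = 0.00161) differed, which for Anxa3 and Il33 is a narrower gap between colonocyte-gated and cycling cells in assembloids than in tissue. Anxa1 (-0.33 ± 0.18, adjusted p = 0.238) and Msln (0.49 ± 1.13, adjusted p = 0.820) did not pass. Without tissue library 1 none of the 3 calls held, at -1.31 for Anxa3, -1.04 for Clu and 4.35 for Il33, and 41 genes in all were then called. Without tissue library 2 Clu was -2.59, and Msln was -1.43 without library 1 and 7.69 without library 2. The Msln term rests on the few tissue cells with an Msln UMI, 7 in library 1 and 6 in library 2. The Il33 term rests on 3 UMIs in tissue colonocyte-gated cells, and the assembloid colonocyte-gated cells (11.6 and 7.24 CPM) lay near the 10.2 and 10.1 CPM of the macrophage-gated cells of the same libraries. The part of RNA from other cells in the Il33 difference was not tested.

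To give the share of cells in which each RNA was detected at equal depth, every gated cell was reduced at random to 2000 UMIs. Shallower cells were left out (104 to 4944 per epithelial library). Anxa1 was then seen in 18.0% and 24% of tissue, 29.8% and 27.4% of organoid and 43.6% and 51.3% of assembloid epithelial cells. Anxa3 was seen in 26.8% and 28.3%, 41.7% and 39.0%, and 35.2% and 48.7% in the same order. The annexins were thus seen in a broad share of the epithelial cells of each group. In stromal fibroblast-gated cells Anxa1 was seen in 17.2% and 18.1% and Anxa3 in 7.09% and 7.03%, and macrophage-gated cells of the assembloid epithelial libraries also carried Anxa3 (50.4% and 47.5%).

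At this depth the other members were seen in few cells, which does not give the number of cells that express them. Clu was in 0.703% and 1.03% of tissue, 4.14% and 5.01% of organoid and 1.13% and 0.969% of assembloid epithelial cells, and in none of 119 and 160 macrophage-gated cells, which at this depth allows up to 2.52% and 1.88% of cells with a UMI. Il33 was in 0.538% and 0.513%, 2.77% and 3.55%, and 4.41% and 1.70%, against 26.6% and 23.4% of the stromal fibroblast-gated cells. The macrophage-gated cells of the assembloid epithelial libraries showed Il33 in 2 of 119 and 2 of 160 cells at this depth. These shares are close to the 1.70% in epithelial cells of library 2, and the part of RNA from other cells there was not tested. Msln was in 0 of 2418 and 0 of 2730 tissue cells, which at this depth allows up to 0.124% and 0.110% of cells with a UMI and does not limit the cells that express it, in 5.30% and 8.25% of organoid cells and in 1.71% and 1.20% of assembloid epithelial cells. Fibroblast-gated cells of the assembloid epithelial libraries, which should lack Msln, showed it in 0.394% of cells in library 1 and in none of 414 in library 2 at the same depth, which allows up to 0.725% of cells with a UMI, and their summed level without thinning was 1.36 and 0.594 CPM. Macrophage-gated cells showed Msln in 0 of 119 and 1 of 160 cells (0.625%). Without thinning, Msln was seen in 46.2% and 24.7% of organoid cells and 0.151% and 0.141% of tissue cells. Median depths were 35238 and 7290 UMIs in the organoid libraries and 3500.5 and 3661 UMIs in the tissue libraries. Also without thinning, Clu was seen in 17.9% to 34.6% and Il33 in 14.0% to 30.4% of organoid cells.

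Some low levels were carried by few cells. The 13 Msln UMIs of tissue library 1 came from 7 cells, and the 43 of library 2 came from 6 cells, 28 of them (65.1%) from a single cell. The 1% of cells that held most Il33 carried 67.1% and 80% of its UMIs in the tissue libraries (140 and 130 UMIs), and 43.3% and 61.7% in the assembloid epithelium (4083 and 1210 UMIs). Clu in tissue library 2 had 52 of 248 UMIs in a single cell. In stroma, where Clu was called higher than in assembloid epithelium, the 1% of cells that held most carried 54.1% and 41.8% of its UMIs, with 104 and 106 in the highest cell, and in assembloid epithelium they carried 43.2% and 42.7%. The mesothelial marker list, whose cell type is the known source of Msln in the body, summed to 26.9 to 39.9 CPM in tissue and organoid libraries with 4 or 5 of its 8 genes at 0, and to 8.50 and 12.6 CPM in the assembloid epithelium with 2 at 0. Its part in the Msln counts was not tested.

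Whether the members were seen in the same cells was described by the share of cells with both genes of a pair, divided by the product of the single shares, at which 1 is the value for genes seen independently of each other. In organoids all 10 pairs lay above 1 in both libraries, from 1.04 to 2.68 at 2000 UMIs and from 1.06 to 2.30 at 5000 UMIs per cell. The 10 pairs share 5 genes, and the ratio was not computed for pairs of other genes. These counts therefore do not show whether co-detection is particular to the members. At 1000 UMIs Il33 with Msln was 3.19 in library 1 and 0.542 in library 2, on 6 and 2 cells, and the other 9 pairs lay above 1 in both. At 2000 UMIs the highest were Clu with Msln, at 2.68 and 1.84 with 28 and 35 cells holding both, and Clu with Il33, at 2.20 and 1.84. At 5000 UMIs Clu with Il33 was at 2.30 and 2.06, Il33 with Msln at 2.08 and 1.54 and Clu with Msln at 1.99 and 1.62, so the order of these pairs changed with depth. Of the organoid cells with a Clu UMI, 14.2% and 15.2% also had an Msln UMI, against 4.91% and 7.88% of those without. Cells with 3 members were 2.69% and 3.35% of organoid cells, where independent genes would give 1.62% and 2.00%, and cells with 4 members 0.441% and 0.370%, where independent genes would give 0.0604% and 0.0963%. Among cycling organoid cells alone, Clu with Msln was at 2.30 and 1.66 and Il33 with Msln went below 1 in a library, so that 9 of the 10 pairs stayed above 1 in both.

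In assembloid epithelium 3 of the 10 pairs lay above 1 in both libraries at 2000 UMIs and 7 at 5000 UMIs, with 3 below 1 in both. Anxa1 with Anxa3 was at 1.10 and 1.11 in the 2 libraries at 2000 UMIs. Anxa1 with Il33 lay below 1, between 0.80 and 0.90, and between 0.89 and 0.95 at 5000 UMIs, but at 1000 UMIs it was 0.87 in library 1 and 1.15 in library 2. Clu with Msln lay between 2.33 and 3.21 at 5000 UMIs on as few as 12 cells. In tissue only 6 pairs could be given a ratio in both libraries at 2000 UMIs, and 1 of them was above 1 in both. Without thinning all 10 pairs exceeded 1 in every group, and those ratios, which mix cells of unlike depth, are not read here. All cells of a library share its free RNA and its depth, and these ratios carry no test.

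**Figure D4:**
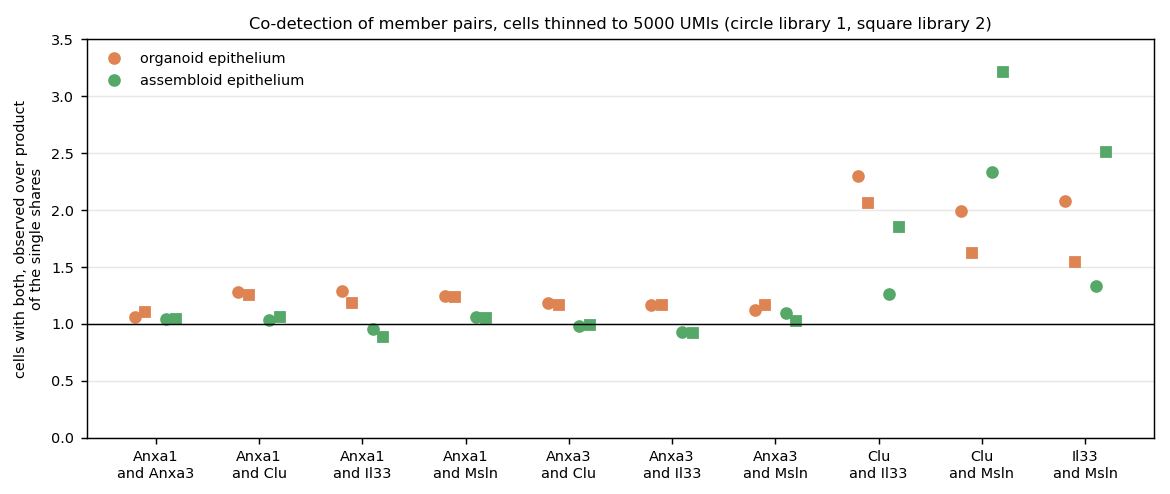
Share of cells with both members of a pair divided by the product of the 2 single shares, for the 10 pairs in organoid and assembloid epithelium, with cells thinned to 5000 UMIs and each point a library. The line at 1 marks genes seen independently; all organoid points lie above it (1.06 to 2.30) and in assembloids the pairs Anxa1 with Il33, Anxa3 with Clu and Anxa3 with Il33 lie below it in both libraries.

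Organoid cells in which more members were seen also held more of the other fetal-like RNAs at equal depth. From cells with no member to cells with 3 or more, the mean number of UMIs of the 15 other fetal-like genes besides S100a6 went from 3.28 to 8.21 in organoid library 1 and from 2.82 to 6.94 in library 2. S100a6, a calcium-binding protein gene given apart because it outweighed the rest of the list, went from 4.73 to 13.7 and from 5.42 to 18.1. The stem cell markers went the other way, from 2.08 to 1.19 and from 3.94 to 1.58, as did the goblet markers, from 1.63 to 0.148 and from 1.71 to 0.526. The cells with 3 or more members numbered 149 and 171, and their median depth before thinning was higher, at 40309 against 32804 UMIs in library 1 and 23550 against 14604 in library 2. In assembloid epithelium the 15 genes went from 4.15 to 5.05 and from 4.06 to 7.67 over the same steps, the goblet markers from 6 to 4.68 and from 11.5 to 4.98, and the stem markers from 0.664 to 0.691 and from 1.00 to 1.09. In tissue, where almost no cell showed 3 members, the step from none to 2 members also came with more of these RNAs, and with more colonocyte markers, from 4.76 to 8.47 and from 5.47 to 9.33. Over the same step colonocyte markers went from 0.266 to 0.230 and from 0.194 to 0.199 in organoids and from 3.90 to 3.73 and from 6.57 to 4.35 in assembloid epithelium. In tissue the 15 genes went from 0.755 to 1.05 and from 0.840 to 1.15, S100a6 from 10.1 to 16.8 and from 10.3 to 13.8, the goblet markers from 45.7 to 30.8 and from 47.6 to 31.5 and the stem markers from 1.81 to 0.940 and from 1.44 to 1.30.

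**Figure D5:**
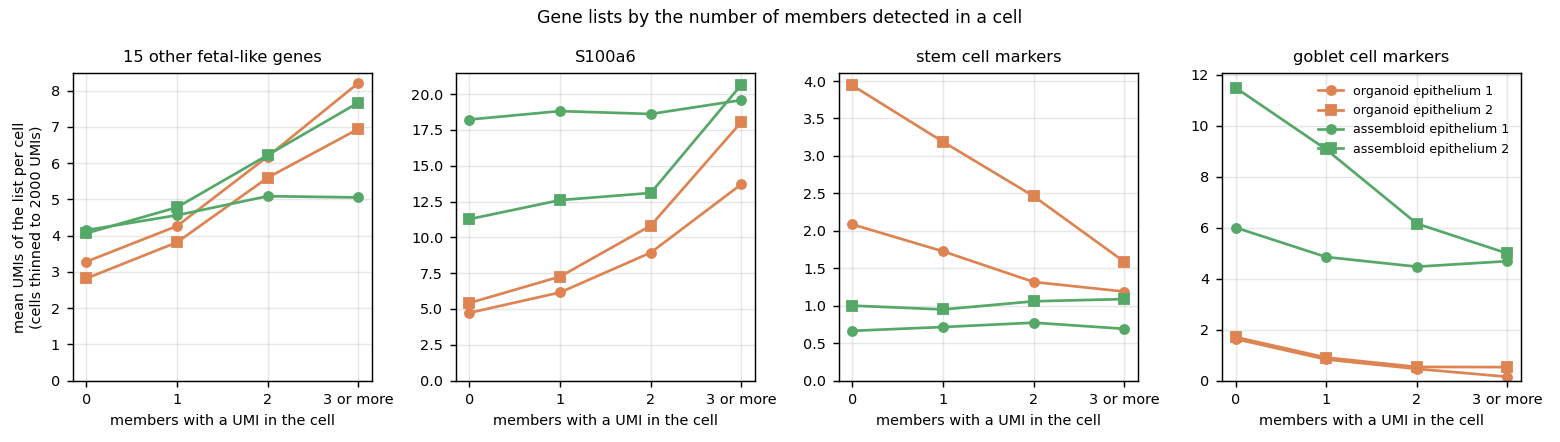
Mean UMIs per cell, in cells thinned to 2000 UMIs, of 15 other fetal-like genes, of S100a6, of the stem cell markers and of the goblet cell markers, by the number of members with a UMI in the cell, for each organoid and assembloid library. In both organoid libraries the fetal-like genes and S100a6 climb (3.28 to 8.21 and 4.73 to 13.7 in library 1) while stem and goblet markers decline.

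The genes whose pattern was most like that of each member were named from the Pearson correlation r of log2(CPM + 1) over 43 sums of library and class, as a description, since the sums share libraries. These sums hold fibroblast-, macrophage- and squamous-gated cells beside the epithelial classes, and Il33 ran from 0.106 to 252 CPM over them. A high r can therefore reflect differences between these cell types. Anxa1 was closest to Anxa2 (r = 0.87), Epha2 (0.84) and Ahnak (0.83), and Anxa3 to Tnip3 (0.86), Pgd (0.79) and Rac1 (0.75). Clu was closest to B9d1 (0.82), Crip2 (0.80) and Hebp2 (0.78), Il33 to Gja1 (0.92), Enah (0.88) and Fbln1 (0.87), and Msln to 4930461G14Rik (0.88), Syt16 (0.87) and Eif3c (0.87). Among the members themselves r was 0.74 for Anxa1 with Anxa3, 0.62 for Anxa3 with Msln and -0.15 for Anxa3 with Il33. Across single organoid cells the correlations were weak. The closest genes were S100a6 (0.24), Tmsb4x (0.23) and Krt19 (0.21) for Anxa1 and Ly6g (0.23), Ly6a (0.22) and Ly6c1 (0.21) for Anxa3. In tissue cells Anxa3 was closest to Lypd8 (0.22), and in assembloid epithelial cells Anxa1 was closest to Lmo7 (0.20).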

How the data were processed

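The deposited values are raw UMI counts per gene and barcode, which the authors made with Cell Ranger on mm10. The matrix headers name version 7.1.0 for epithelium and 6.0.1 for stroma, whereas the submitters' processing notes name version 6, and intron counting is not stated in the sources used here. The members and gene lists were chosen with earlier results of these data known, and the gate cut-offs after the data were seen. A lineage gate required 3 distinct markers and 80% of the UMIs of all 10 lineage lists. Epithelial classes were cut at 10 (cycling, stem, tuft), 30 (colonocyte, enteroendocrine) or 150 (goblet) list UMIs per 10000. No doublet caller was run, and the 5% of cells with the most UMIs were left out as an alternative.

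UMIs were summed per library and class and tested with edgeR 4.0.16 in R 4.3.3 (filterByExpr, TMM scaling, quasi-likelihood test, Benjamini-Hochberg adjustment over all genes tested). The 6 epithelial libraries were fitted together, stroma with assembloid epithelium, and the classes with library as a term. DESeq2 1.42.0 was an alternative. Intervals use the 95% level and a count of 0 allows 3 counts. Always named were the 5 members, and per list at most 4 called genes with the largest change and a mean log2 CPM of at least 3, and per member the 3 most alike genes, and some genes that met this rule are not reported here. On simulated counts for assembloid against tissue epithelium (18395 genes), edgeR recovered 51% of changes of 1 and 100% of changes of 2 on the log2 scale. For the difference of class effects (14334 genes) it recovered 12% and 96%. The simulated spread was set below the dispersion of 0.0626 estimated from the 6 epithelial libraries, and changed genes were drawn above a minimum level. Recovery in the data, above all for genes of low count, can therefore be lower. Replicate numbers did not pair samples (correlations of deviations from -0.025 to 0.043). Of the gene identifiers, 99.8% were in the GENCODE M21 annotation, which gave positions. No other samples' columns were used. Intervals of the edgeR fits include the spread between libraries, while all other intervals and limits cover counting error only.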

Additional observations from a re-analysis of the deposited data

Results flagged for a closer look

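The effect of class differed between assembloid and tissue epithelium for 3 members by the test of the difference (edgeR, colonocyte-gated against cycling cells, log2): Anxa3 by -1.55, Clu by -1.81 and Il33 by 4.55. Of all genes 15% were called in that test, and none of the 3 calls held without tissue library 1.

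In cells outside the comparisons, members were counted above the highest level in the tissue epithelium, which served as the control. In the macrophage-gated cells of the assembloid epithelial libraries (125 and 161 cells) Anxa3 was at 291 and 330 CPM and Il33 at 10.2 and 10.1 CPM, while no Clu UMI was found. That Il33 is a low level, seen in 2 of 119 and 2 of 160 cells at 2000 UMIs per cell. Whether these cells express it was not tested. In stroma library 1, the 314 cells with both epithelial and squamous markers held Anxa1 at 722, Anxa3 at 321, Clu at 273, Il33 at 252 and Msln at 6.19 CPM. The 444 squamous or basal epithelial-gated cells of the same library held Anxa1 at 492, Anxa3 at 283, Clu at 24.8 and Il33 at 218 CPM. Stroma library 2 had only 16 and 21 cells of these classes, under the minimum of 50 cells, so the values have no replicate of like size. Its 16 epithelial and squamous cells held Anxa1 at 1548, Anxa3 at 315, Clu at 33.1, Il33 at 178 and Msln at 14.5 CPM, and its 21 squamous or basal cells Anxa1 at 592, Anxa3 at 285, Clu at 29.9 and Il33 at 116 CPM. Clu in the former class thus differed widely between the libraries. No group had 4 or more samples, so a search for single libraries far from their group was not made.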

How the results depend on the processing

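For the 5 members in 7 comparisons (35 results), 434 alternative values were computed, of which 387 kept direction and side of the threshold, 32 lost the call, 5 gained it and 10 changed sign. With the replicate block, fitted for the 4 comparisons between groups and not for the class comparisons, no member changed its call (in assembloid against tissue Anxa1 1.93, Anxa3 1.10, Clu 0.65, Il33 2.98 and Msln 4.10). Il33 and Msln in tissue rest on 13 to 140 UMIs per library, and the cause of the changes listed here was not tested.

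For Clu in assembloid against tissue, the difference was 0.62 with at least 1000 genes per cell, 0.56 with at most 5% mitochondrial counts, 0.82 after thinning and 0.51 without cells holding a fibroblast-marker UMI (an alternative chosen after seeing the data), none called. Anxa1 in organoid against tissue was 0.78 with at most 20% mitochondrial counts and 0.66 after thinning, not called. Anxa3 in organoid against assembloid turned positive at 0.0031 with no filter on low counts, 0.081 with at most 5% mitochondrial counts and 0.20 with no epithelial gate, and Il33 there was called at -0.83 with no gate. Clu in stroma was 1.04 and not called within the assembloid epithelial libraries, also chosen after seeing the data. Between colonocyte-gated and cycling tissue cells, Clu was 1.17 in DESeq2 and 0.88 after thinning, neither called, and Msln turned to -1.16 in DESeq2 and -4.43 under the stricter class gate, and after thinning gave no value. In assembloids the stricter gate gave -0.76 for Clu and 1.00 for Msln, both called, and thinning gave 0.44 for Anxa3, not called. For the difference of class effects, Clu was -1.72 in DESeq2 and -1.55 after thinning and Il33 was 6.04 after thinning, none called, so that 1 of 3 members kept its call.

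Leaving out a library gave 0.82 to 1.35 for Anxa3 and 0.34 to 0.94 for Clu in assembloid against tissue, with 3 to 4 members called. In organoid against tissue it gave 0.64 to 1.12 for Anxa1 and 0.81 to 1.29 for Anxa3, with 3 to 5 members called. In organoid against assembloid it gave -1.26 to -0.84 for Anxa1, -0.29 to 0.25 for Anxa3 and -0.79 to 0.59 for Il33. Between the classes it gave 0.46 to 2.00 for Clu and -7.04 to 2.08 for Msln in tissue, and 0.27 to 1.01 for Msln in assembloids. For the difference of class effects it gave -1.79 to -1.31 for Anxa3, -2.59 to -1.04 for Clu, 4.30 to 4.88 for Il33 and -1.43 to 7.69 for Msln, with 0 to 3 members called.

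Over all genes, thinning lowered the calls from 9180 to 5960 in assembloid against tissue, from 8895 to 5855 in organoid against tissue, from 9736 to 6128 between the cultures, from 7526 to 3519 between the classes in tissue, from 7112 to 3469 in assembloids and from 2236 to 388 for their difference. Without a tissue library the calls were 4941 and 5308, 5129 and 5293, 4169 (without library 1) between the tissue classes, and 41 and 805 for the difference, which had 3741 without assembloid library 2 and 1310 under the stricter gate. Stroma against epithelium had 13897 of 19280 genes, and 8619 of 17626 within the assembloid epithelial libraries. Shares of cells moved with the thinning depth for nearly every member.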
